A study of Homo sapiens and Mus musculus with 21 samples.

Results

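The host side of the LRP6 experiment was examined: mouse transcripts in the caecum of mice that carried SW620 LRP6KO tumours, compared with mouse transcripts in the caecum of mice that carried SW620 Cas9 tumours. The members were the 6 libraries of these groups, 3 of each, taken by their labels from the 21 libraries of the mouse table, and all 54146 mouse genes of that table. SW620 is a human colon adenocarcinoma line. LRP6KO cells were transfected with CRISPR reagents against LRP6 together with a plasmid for puromycin selection, and were then sorted by flow cytometry for low LRP6 on the cell surface. They are a sorted population, and the labels name no clone. Cas9 cells were mock transfected with CRISPR/Cas9 reagents and sorted. The hosts of both groups were NSG mice, in which 500000 cells were injected into the wall of the caecum, and the caecum was frozen at day 28. Host age was not given in the sources used here.

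The other 15 libraries served as background. SW620 dnLEF1 cells carried a dominant negative LEF1 from a lentivirus and SW620 Mock cells a mock lentivirus, SW480 dnLEF1 and SW480 Mock were made in the same way from the line SW480, and PBS mice received phosphate-buffered saline without tumour cells. The labels give 3 replicates per group without naming the animals, so p-values measure the spread between these samples, which may be partly technical. Values are TPM, transcript abundances scaled to the same total over the mouse genes of each library. They keep no depth and do not show what part of a caecum was tumour. In such bulk tissue, fewer cells of a type and less RNA per cell cannot be told apart.

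LRP6 is a co-receptor that, with a Frizzled receptor, passes a Wnt signal from the cell surface to beta-catenin. The caecum wall around a graft contains crypt epithelium, smooth muscle, nerves, vessels, fibroblasts and myeloid cells, and Wnt ligands and R-spondins from mesenchymal cells maintain crypt stem cells there. NSG mice lack mature T, B and natural killer cells. CRISPR was applied to the human cells before injection, so the Lrp6 gene of the host was not targeted, and the comparison asks whether host tissue differed with the state of LRP6 in the graft.

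The mouse table gives Ensembl identifiers only, and the files do not pair them with names. Of 54146 mouse identifiers, 0 were found in the human name tables used here. The 51 lists of mouse symbols prepared for cell types and pathways, host Lrp6 and the caecum markers among them, were therefore not analysed, and the labelled tissue was not checked against its markers. Host genes are given by identifier, and groups of genes were taken from the PBS, Mock and dnLEF1 libraries or from a cell cycle list keyed by identifier.

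The targeted gene was read in the human table of the same libraries. Human LRP6 (ENSG00000070018.8) was at 21.12, 18.79 and 17.45 TPM in LRP6KO replicates 1, 2 and 3, and at 10.93, 17.83 and 17.51 TPM in Cas9 replicates 1, 2 and 3. The groups overlapped, and the LRP6 transcript was not lower in LRP6KO. An edited gene can still be transcribed and the sort was on protein, so the transcript does not check the labels. Every direction below rests on the libraries labelled LRP6KO and Cas9.

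No host gene passed the test between LRP6KO and Cas9. Of 19672 mouse genes that reached 1 TPM in 3 or more of the 21 libraries, 0 passed an adjusted p of 0.05 (limma with an intensity trend on log2(TPM + 1), Benjamini-Hochberg adjustment; 0% called), and the smallest adjusted p was 0.449. At an unadjusted p of 0.05, 910 genes (4.63%) passed, 377 higher (1.92%) and 533 lower (2.71%) in LRP6KO. Over all tested genes the median difference, LRP6KO minus Cas9, was -0.018 on the log2(TPM + 1) scale, and the interquartile range lay between -0.17 and 0.14. Differences on this scale understate the change of low genes.

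The precision of a single gene was limited. The median 95% interval of a difference reached 0.48 log2 units to either side, without adjustment over genes. The adjusted threshold is stricter, so a gene with typical spread could differ by more than that without being called. Among 1497 genes with a mean of 100 TPM or more in the 6 libraries, the median difference in size was 0.10 and the median interval 0.38 to either side. Among 5951 genes of 1 to 5 TPM the same values were 0.19 and 0.53. At every level the median SD between replicates was at least as large in LRP6KO as in Cas9, for instance 0.18 against 0.12 log2 units from 100 TPM upward. A missed threshold does not show that the genes were at the same level.

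**Figure D1:**
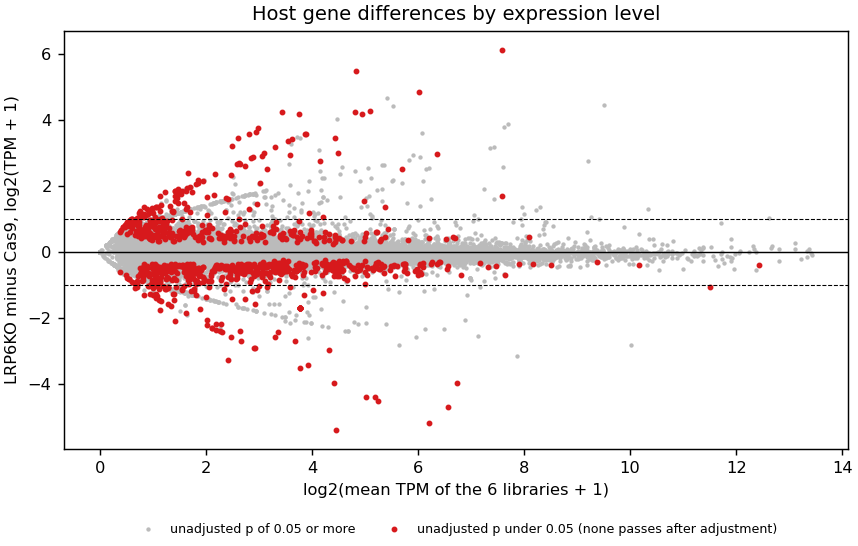
Difference of each of 19672 host genes, LRP6KO minus Cas9 in log2(TPM + 1), against its mean level in the 6 libraries on a log2 axis. Red points are the 910 genes with an unadjusted p under 0.05, dashed lines mark 1 unit of this difference to either side, and no gene passed after adjustment.

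Between LRP6KO and Cas9 libraries, host transcripts were about as alike as within a group. Pearson's r of log2(TPM + 1) across genes was 0.919 to 0.962 in the 9 pairs between groups (median 0.947), 0.947 to 0.962 in the 3 pairs within Cas9 and 0.922 to 0.955 in the 3 pairs within LRP6KO. LRP6KO replicate 3 had a mean r of 0.956 with the Cas9 libraries and 0.938 with its own group. LRP6KO replicate 2 had 0.952 with Cas9 and 0.942 with its own group. Both own-group means include the pair with LRP6KO replicate 1 (r of 0.922 for replicate 3 and 0.929 for replicate 2). Between LRP6KO replicates 2 and 3, r was 0.955, close to their means with Cas9. These values describe libraries over genes, and genes are not independent replicates.

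**Figure D2:**
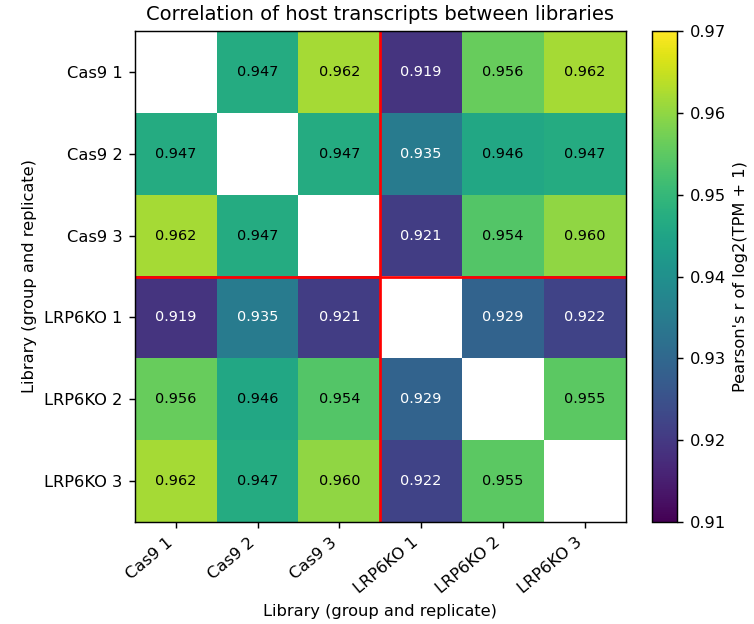
Pearson's r of host log2(TPM + 1) between the 6 libraries, with red lines between the groups. The low row and column belong to LRP6KO replicate 1 (0.919 to 0.935), and the other 10 pairs lie between 0.946 and 0.962.

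LRP6KO replicate 1 stood apart among the 6 libraries. It listed 37521 host genes above 0, against 27059 and 26095 in LRP6KO replicates 2 and 3 and 25815, 29598 and 25328 in Cas9 replicates 1, 2 and 3. In the other groups this count ran from 24350 in an SW620 dnLEF1 library to 38985 in an SW480 Mock library. LRP6KO replicate 1 held 677 genes of at least 1 TPM that were at 0 in all 5 other libraries, where each of these 5 held 88 to 221 such genes. Its most abundant gene reached 32191 TPM, while that gene was at 378 to 2278 TPM in the 5 other libraries and at 108 to 70429 TPM in the 15 libraries of the other groups. Without LRP6KO replicate 1, 1 host gene passed, higher in LRP6KO (smallest adjusted p 0.00796 by limma).

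On the first 2 principal components of all 21 libraries (20.7% and 14.0% of the variance), PBS lay at -58.3 to -31.2 on component 1, and the 3 Cas9 libraries at 46.4, 17.7 and 50.6. LRP6KO replicates 2 and 3 lay among the Cas9 libraries, at 29.9 and 48.5. LRP6KO replicate 1 lay at -20.9 on component 1 and at -61.9 on component 2, where Cas9 replicate 2 was the next lowest of the 6 at -42.8. By exact two-sided permutation tests of 3 against 3 libraries, which cannot give a p below 0.1, no difference was detected in genes above 0 (30225 ± 6340 against 26914 ± 2340, SD, n = 3 each, p = 0.5), in the share of TPM in the 10 most abundant genes (11.0% ± 0.774 against 9.50% ± 1.07, SD, n = 3 each, exact p = 0.3) or in either component (exact p = 0.6 and 0.8). The adjusted p over the 6 measures tested was 0.8 for each.

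**Figure D3:**
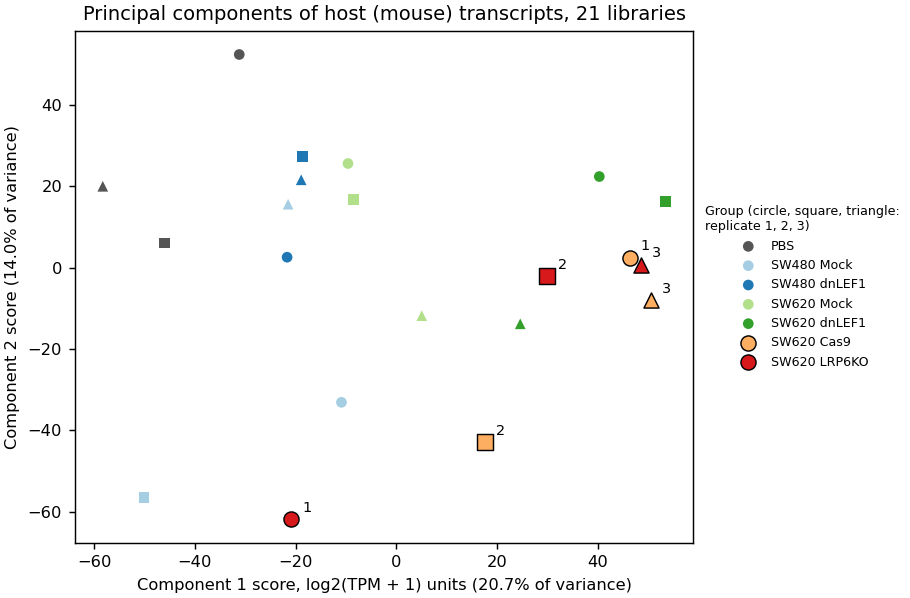
Scores of the 21 libraries on the first 2 principal components of log2(TPM + 1) over tested host genes; colours are groups, symbols are replicate numbers, and the 6 outlined points are LRP6KO and Cas9. LRP6KO replicates 2 and 3 lie near Cas9 replicates 1 and 3, while LRP6KO replicate 1 (-20.9, -61.9) and Cas9 replicate 2 (17.7, -42.8) lie lower on component 2.

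Large differences occurred, with large spread. In 617 tested genes (3.14%) the difference was 1 log2(TPM + 1) unit or more in size, 368 higher and 249 lower in LRP6KO. The 3 and 3 libraries did not overlap in 1842 genes (9.36%), 584 higher (2.97%) and 1258 lower (6.39%). If labels were interchangeable, the 3 and 3 libraries of a gene would separate fully with a probability of 0.1, so 9.36% is near that level. A difference of 1 unit or more and no overlap both held, with at least 5 TPM in the higher group, in 47 genes (0.239%). Of these, 27 were higher and 20 lower in LRP6KO, none of them past the adjusted threshold. Without LRP6KO replicate 1 the count was 82, and without Cas9 replicate 2 it was 140; with fewer libraries, overlap is less likely. The other 15 libraries place these 47 genes: the LRP6KO mean was nearer to the mean of those libraries in 35 genes and the Cas9 mean in 12. The same shares over all tested genes were not computed, so these counts do not show which group departed from the rest. In 35 of the 47, 22 of those higher and 13 of those lower, neither group mean was outside the range of the other libraries, and 14 of the higher and 10 of the lower genes were at 0 in at least 1 of them. A mean of 3 libraries falls easily within the range of 15 single libraries from other groups. These values therefore place the genes and do not test their differences.

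In 15 of 19672 tested genes all Cas9 libraries were listed at 0 and all LRP6KO libraries were at 1 TPM or more. In 4 of 19672 the reverse held. At 10 TPM or more these counts were 2 and 1. Each of these genes was at 0 in some other library too, the 15 genes in a median of 6 of the other 15 libraries and the 4 genes in a median of 12. An exact 0 in a TPM table can be a failed estimate, so these genes are given by their library values, with no fold.

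The 2 identifiers with the smallest p in each direction were of this kind. ENSMUSG00000098498.1 was at 7.31, 1.15 and 1.59 TPM in LRP6KO replicates 1, 2 and 3 and listed at 0 in all Cas9 libraries (limma adjusted p = 0.449). ENSMUSG00000098931.1 had the same value in all 21 libraries, so the 2 identifiers cannot be told apart and both are uncertain. Outside LRP6KO, they were above 0 in SW620 Mock replicate 2 alone, at 0.69 TPM. Both entered the test only through the 3 LRP6KO libraries, the only ones in which they reached 1 TPM, and dropped out of it when any of these was left out. Of the tested genes, 122 (0.62%) repeated another gene's values in this way.

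ENSMUSG00000116301.1 was at 1.84, 2.67 and 2.70 TPM in Cas9 and listed at 0 in all LRP6KO libraries (limma adjusted p = 0.449). It was at 0 in 12 of the other 15 libraries and at most 1.87 TPM there. ENSMUSG00000101730.1 was at 30.44, 47.26 and 46.97 TPM in Cas9 and at 0 in all LRP6KO libraries (limma adjusted p = 0.507). It was at 22.96 and 33.9 TPM in SW620 dnLEF1 replicates 1 and 3 but at 0 in replicate 2, and at 42.31 TPM in SW480 Mock replicate 2 but at 0 in replicates 1 and 3. Between replicates of 1 group it thus went from 0 to values as high as in Cas9. With only the LRP6KO and Cas9 libraries in the fit, ENSMUSG00000101730.1 passed (limma adjusted p = 0.0012). That fit leaves out the dnLEF1 and SW480 Mock libraries in which it varied, and its LRP6KO values, all at 0, have no spread. The pass therefore does not take the variation between replicates of other groups into account.

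**Figure D4:**
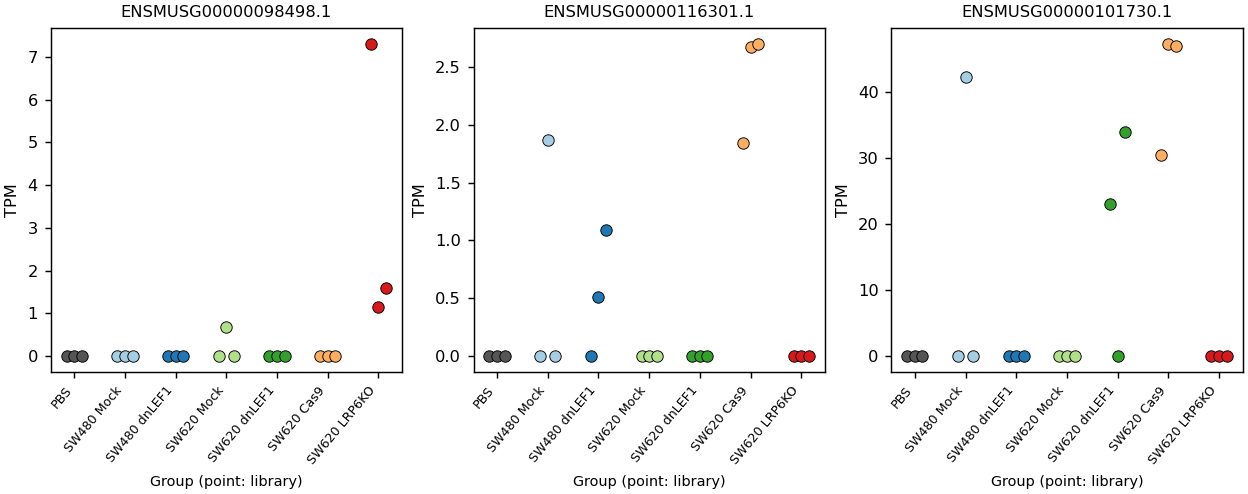
TPM of 3 host identifiers in every library of the 7 groups, on linear axes; each point is a library. The values are at 0 in 15 to 17 of 21 libraries, and ENSMUSG00000101730.1 is high in Cas9, in 2 of 3 SW620 dnLEF1 libraries and in 1 of 3 SW480 Mock libraries.

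Against PBS, both groups differed in many host genes. LRP6KO differed from PBS in 2447 genes (12.4%), 1952 higher and 495 lower, and Cas9 in 3128 genes (15.9%), 2554 higher and 574 lower. Both comparisons use the same PBS libraries, and the difference between them is the comparison of LRP6KO with Cas9, in which no gene passed. Without LRP6KO replicate 1, the count for LRP6KO was 2030 and that for Cas9 3115. Without Cas9 replicate 2, the count for LRP6KO was 2423 and that for Cas9 2499. A count can also fall because its group then has fewer libraries, so these values do not assign the gap to a library.

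Genes that mark a SW620 graft in the host table were then taken from libraries outside the comparison, as those that differed between SW620 Mock and dnLEF1 on one side and PBS on the other (limma on these 9 libraries, 6.5% called). There were 1084 higher and 195 lower genes. The sources used here do not say how reads that match both genomes were assigned, so the higher genes can include reads from human cells, which was not tested. In the 1084 genes the median level against the PBS mean was 1.05, 1.12 and 1.33 log2 units in LRP6KO replicates 1, 2 and 3, and 1.22, 1.43 and 1.40 in Cas9 replicates 1, 2 and 3. LRP6KO replicates 1 and 2 were the lowest of the 6, and LRP6KO replicate 3 lay within the Cas9 range, so the groups overlapped. SW620 dnLEF1 was at 1.02 to 1.12, SW620 Mock at 0.67 to 0.94 and SW480 Mock at 0.44 to 0.94.

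Over the same 1084 genes the median difference, LRP6KO minus Cas9, was -0.17, beside -0.02 over all genes tested, with 220 above 0 (20.3%, beside 45.3%). None passed the adjusted threshold, 7 were higher and 82 lower at an unadjusted p of 0.05 (8.21%, beside 4.63% of all genes tested), and 10 higher and 178 lower did not overlap (17.3%, beside 9.36% of all genes tested). Without LRP6KO replicate 1 the median difference was -0.11, and without LRP6KO replicate 3 it was -0.27, the extremes among the libraries left out. Summed over these genes, expression was 68940, 79020 and 86090 TPM in LRP6KO and 79560, 87690 and 87210 TPM in Cas9, against 35440 to 37060 TPM in PBS.

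In the 195 lower genes, the median level against PBS was -0.72, -0.85 and -0.89 log2 units in LRP6KO and -0.88, -0.70 and -0.84 in Cas9, and the median difference between the groups was -0.01, with 89 of 195 above 0. The SD between libraries of a group was 0.13 for the median of the 1084 genes and 0.05 for that of the 195 genes, and the lists were not tested against each other. At an unadjusted p of 0.05, 6 were higher and 2 lower (4.1%, beside 4.63% of all genes tested).

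**Figure D5:**
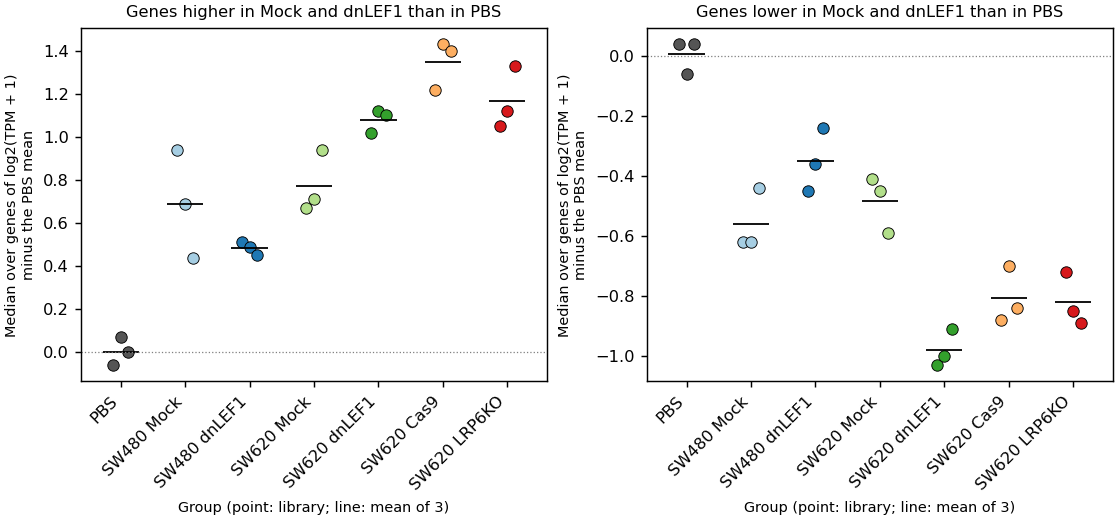
Median over genes of log2(TPM + 1) minus the PBS mean in each library, for the 1084 genes higher (left) and the 195 genes lower (right) in SW620 Mock and dnLEF1 than in PBS; points are libraries and lines are means of 3. Cas9 lies at 1.22 to 1.43 and LRP6KO at 1.05 to 1.33 on the left, and both lie between -0.89 and -0.70 on the right; PBS, Mock and dnLEF1 of SW620 were used to choose the genes.

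Dividing cells pass through G1, S and G2/M, each with its own set of transcripts, and in the caecum most division is in the crypts. A list of mouse phase markers keyed by Ensembl identifier, distributed with the R package scran, was used for this, chosen after the files had been examined. The marker values can also include reads from human cells of the graft, which was not tested, so they need not reflect host division alone. Of 53 G2/M markers, 52 were tested. Their median difference, LRP6KO minus Cas9, was -0.13, with 13 of 52 above 0, 0 past the adjusted threshold and 1 lower at an unadjusted p of 0.05 (1.92%, beside 4.63% of all genes tested). Their sum was 1798, 2002 and 1897 TPM in LRP6KO and 2017, 2109 and 2065 TPM in Cas9, so that in this sum every LRP6KO library was below every Cas9 library. The median level of the markers against PBS overlapped, at 0.05, -0.06 and -0.03 log2 units in LRP6KO and 0.08, 0.03 and 0.07 in Cas9. All LRP6KO sums lay within the range of SW620 dnLEF1 (1676 to 2016 TPM), and those of replicates 2 and 3 within that of PBS (1801 to 2157 TPM). All Cas9 sums lay within the ranges of PBS and of SW620 Mock (1848 to 2253 TPM). With interchangeable labels, 3 and 3 sums would separate fully with a probability of 0.1, and the separation was not tested. In these markers the libraries did not overlap in 15.4% of 52, 1 higher and 7 lower in LRP6KO, beside 9.36% of all genes tested.

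For the other phases, the median difference was -0.04 over 98 S markers, with 40 above 0, and -0.02 over 54 G1 markers, with 24 above 0, beside -0.02 over all genes tested. The libraries did not overlap in 14.3% of the S markers, 6 higher and 8 lower, and in 9.26% of the G1 markers, 3 higher and 2 lower. No test between phases was run. The S marker sum was 3399 to 3501 TPM in LRP6KO and 3374 to 3596 TPM in Cas9, and the G1 marker sum 1979 to 2357 and 2055 to 2272 TPM, overlapping in both.

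SW620 dnLEF1 against Mock is the host comparison most like this one, as it also sets grafts with a modified Wnt component against a control of the same line, and it shares no library with it. At an unadjusted p of 0.05 it held 2364 genes (12%) and after adjustment 5 (0.0254%), 3 higher and 2 lower with dnLEF1. Across the 19672 genes, the changes in the 2 comparisons had a Pearson's r of -0.109 and a Spearman's rho of -0.189, given as a description over genes. The difference of the 2 changes, LRP6KO minus Cas9 less dnLEF1 minus Mock, passed in 2 genes (0.0102%; limma, smallest adjusted p 0.0163), with 1962 (9.97%) at an unadjusted p of 0.05.

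ENSMUSG00000031972.5 was one of these 2, named because it passed. It was at 41.15, 56.14 and 48.53 TPM in LRP6KO and 62.28, 81.46 and 74.34 TPM in Cas9, against 38.37, 55.73 and 51.97 TPM in dnLEF1 and 11.31, 10.6 and 20.57 TPM in Mock. LRP6KO was below Cas9 without overlap, while dnLEF1 was above Mock without overlap. Its LRP6KO minus Cas9 difference was -0.57 (SE 0.24, limma adjusted p = 1) and its dnLEF1 minus Mock difference 1.75 (limma adjusted p = 0.0119), so that dnLEF1 against Mock made up most of the difference of changes of -2.33 (SE 0.34, limma adjusted p = 0.0298). PBS libraries were at 14.47 to 15.05 TPM, near the Mock level and below LRP6KO, Cas9 and dnLEF1. The other, ENSMUSG00000093276.1, was at 23.18, 12.31 and 4.92 TPM in LRP6KO and at 11.04, 20.38 and 38.57 TPM in Mock, and listed at 0 in all 3 Cas9 and all 3 dnLEF1 libraries (limma adjusted p = 0.0163 for the difference of changes and 0.507 for LRP6KO against Cas9). PBS libraries held it at 2.43 to 30.11 TPM. The count of genes that passed was 0 without LRP6KO replicate 1, LRP6KO replicate 2, Cas9 replicate 3 or Mock replicate 2. The smallest adjusted p by limma was then 0.0751, 0.0529, 0.0722 and 0.0705, in this order. With fewer libraries the test also detects less, so these counts do not show that the calls rest on single libraries.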

How the data were processed

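RNA from frozen caecum (RNA integrity number of at least 9, per the labels' protocols) was sequenced with Smart-seq2. The deposited values are TPM, made by the authors with Trimmomatic 0.35, Bowtie 1.2 and RSEM 1.2.31 and builds hg38 and mm10, per the submitters' processing notes; each library sums to about the same total, so depth is unknown and no counting interval is given. Host genes that reached 1 TPM in 3 or more of the 21 libraries (19672; 6674 were never above 0) were fitted as log2(TPM + 1) with limma 3.58.1 in R 4.3.3, with a mean per group, all 7 groups in the fit, an intensity trend and Benjamini-Hochberg adjustment over all tested genes at 0.05. The fit was tested on simulated data with normally distributed noise and changes planted only in genes of higher expression. The simulation had no floor at 0 and no library that stood apart, so it does not cover genes listed at 0. Named were the 2 identifiers each way with the smallest p, and those called in the difference of changes. Phase markers came from scran 1.30.0 and were markers of 1 phase only. Figures used Python 3.11.15 and matplotlib 3.10.9. The members and lists were chosen with earlier results of these data known. The labels do not say whether replicate numbers pair LRP6KO with Cas9 libraries, and the main fit used no pairing.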

Additional observations from a re-analysis of the deposited data

Results flagged for a closer look

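In 2 host genes the LRP6KO minus Cas9 change differed from the dnLEF1 minus Mock change by a test of the difference (limma over all genes, adjusted p under 0.05). ENSMUSG00000093276.1 (limma adjusted p = 0.0163) was listed at 0 in all Cas9 and all dnLEF1 libraries and above 0 in all LRP6KO and all Mock libraries, so no fold is given. ENSMUSG00000031972.5 had a difference of -2.33 (adjusted p = 0.0298), of which dnLEF1 minus Mock made up 1.75 (limma adjusted p = 0.0119) and LRP6KO minus Cas9 -0.57 (limma adjusted p = 1, not called).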

How the results depend on the processing

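The count of 0 host genes between LRP6KO and Cas9 held without a filter, with a filter of 5 TPM, median-ratio scaling, array weights and the replicate block (844 genes at an unadjusted p of 0.05), by limma. It was 1 with a pseudocount of 0.1, 4 with only the 2 groups in the fit (1 of the 4 named identifiers among them) and 0 to 2 with a library left out: 1 without LRP6KO replicate 1, 2 without LRP6KO replicate 3 and 2 without Cas9 replicate 1. The 10 genes called under any of the 13 alternatives were each called under 1 only.

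The count of 2 for the difference of changes was 0 without a filter, 64 with array weights and 1 with the replicate block. With a library left out it ranged from 0 to 56: 7 without LRP6KO replicate 3, 5 without Cas9 replicate 2 or dnLEF1 replicate 1, 1 without Mock replicate 1, 56 without Mock replicate 3, and 0 without LRP6KO replicate 1, LRP6KO replicate 2, Cas9 replicate 3 or Mock replicate 2. The cause was not tested. The difference in genes above 0 ranged from -337 without LRP6KO replicate 1 to 5376 without LRP6KO replicate 3 and thus rests on LRP6KO replicate 1. Of 19672 tested genes, those without overlap numbered 1842 with all libraries, 3587 without LRP6KO replicate 1 and 3881 without Cas9 replicate 2. Both omissions were chosen after seeing the data, and with fewer libraries overlap is less likely. The median over S markers was 0.01 without Cas9 replicate 2.

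Same-numbered libraries of LRP6KO and Cas9 had correlations of their deviations of -0.179, -0.117 and 0.108. For differently numbered libraries the values ran from -0.206 to 0.265. The alternatives for symbol-based lists and summed cell type markers were not run. TPM keep no depth, so what depth limits cannot be stated.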
